A study of Mus musculus with 4 samples.

Results

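The comparison described here set 2 induced pluripotent stem (iPS) cell lines against the bone marrow mononuclear cells (BMMNCs) of the kind they were made from, in the mouse. It used 3 of the 4 arrays of the series: iPS line 7, iPS line 13 and BMMNCs (n = 2 lines against n = 1 array). The iPS lines were derived from C57BL/6 marrow cells of mice that carry an Oct4-EGFP transgene, a green fluorescent reporter of the Oct4 gene, and the labels do not name the factors that reprogrammed them. They were grown on irradiated mouse embryonic fibroblasts, the feeder cells, in medium with serum and leukemia inhibitory factor, and the feeders were depleted by preplating on gelatin before RNA was taken. The BMMNCs were also C57BL/6, without the transgene in their labels, and are a mixture of blood cell types at all stages. Nothing in the labels says that the lines came from separate animals, so p-values measure only the spread between these 2 lines, and the marrow has no replicate. Each array was read in a single colour, and 59.0% (line 7), 56.1% (line 13) and 54.6% (BMMNCs) of the 41160 probes kept were well above background.

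Of 33378 genes or transcripts on the array, 20001 entered the comparison because their signal was well above background on both iPS arrays or on the BMMNC array. Levels are log2 signals relative to the 75th percentile of the array, so a level of 0 is that percentile and a difference of 1 is a 2-fold change. A gene "rose" or "fell" in the iPS lines where the limma test gave an adjusted p under 0.05. That test passed most of the array: 7914 genes rose (39.6%) and 8424 fell (42.1%), down to a difference of 0.31. A size rule was therefore read beside it, at least 4-fold in each line against BMMNCs. On the signals as measured 3189 genes met it upward (15.9%) and 3209 downward (16.0%), but many of these were not above background on a side. After such dim signals were raised to the lowest signal well above background on their array, 2492 genes met it upward (12.5%) and 2565 downward (12.8%), and the counts of members below use this stricter form. Medians use the signals as measured, and where the median over members above background on all 3 arrays differs by more than 1.5 times, it is given too. For a gene that did not clear background on a whole side, "at least N-fold" sets the brighter side against the lowest signal that any probe well above background had on the dim arrays, or the gene's own signal there if higher. An adjusted p printed beside such a bound comes from the limma test on the signals as measured, dim ones included. It does not test the bound, and such a gene entered the comparison through its bright side only. In bulk RNA, fewer cells of a type and less RNA per cell cannot be told apart.

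The content of this comparison is a set of gene families, groups of related genes whose members often do the same job in different tissues. White blood cells use their own members of many families, such as the integrins of leukocytes or the actin regulators of migrating cells, while epithelial, mesenchymal and early embryonic cells use others. Pluripotent cells grow as tight colonies joined by E-cadherin and are sustained by a small network of transcription factors. In all, 51 families with 941 genes were listed, of which 883 were on the array and 807 were tested: 421 rose, 321 fell and 65 did not pass. By the size rule, 222 of the 807 were higher and 191 lower in both lines. The remaining genes had no probe under their name or did not enter the comparison.

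**Figure D1:**
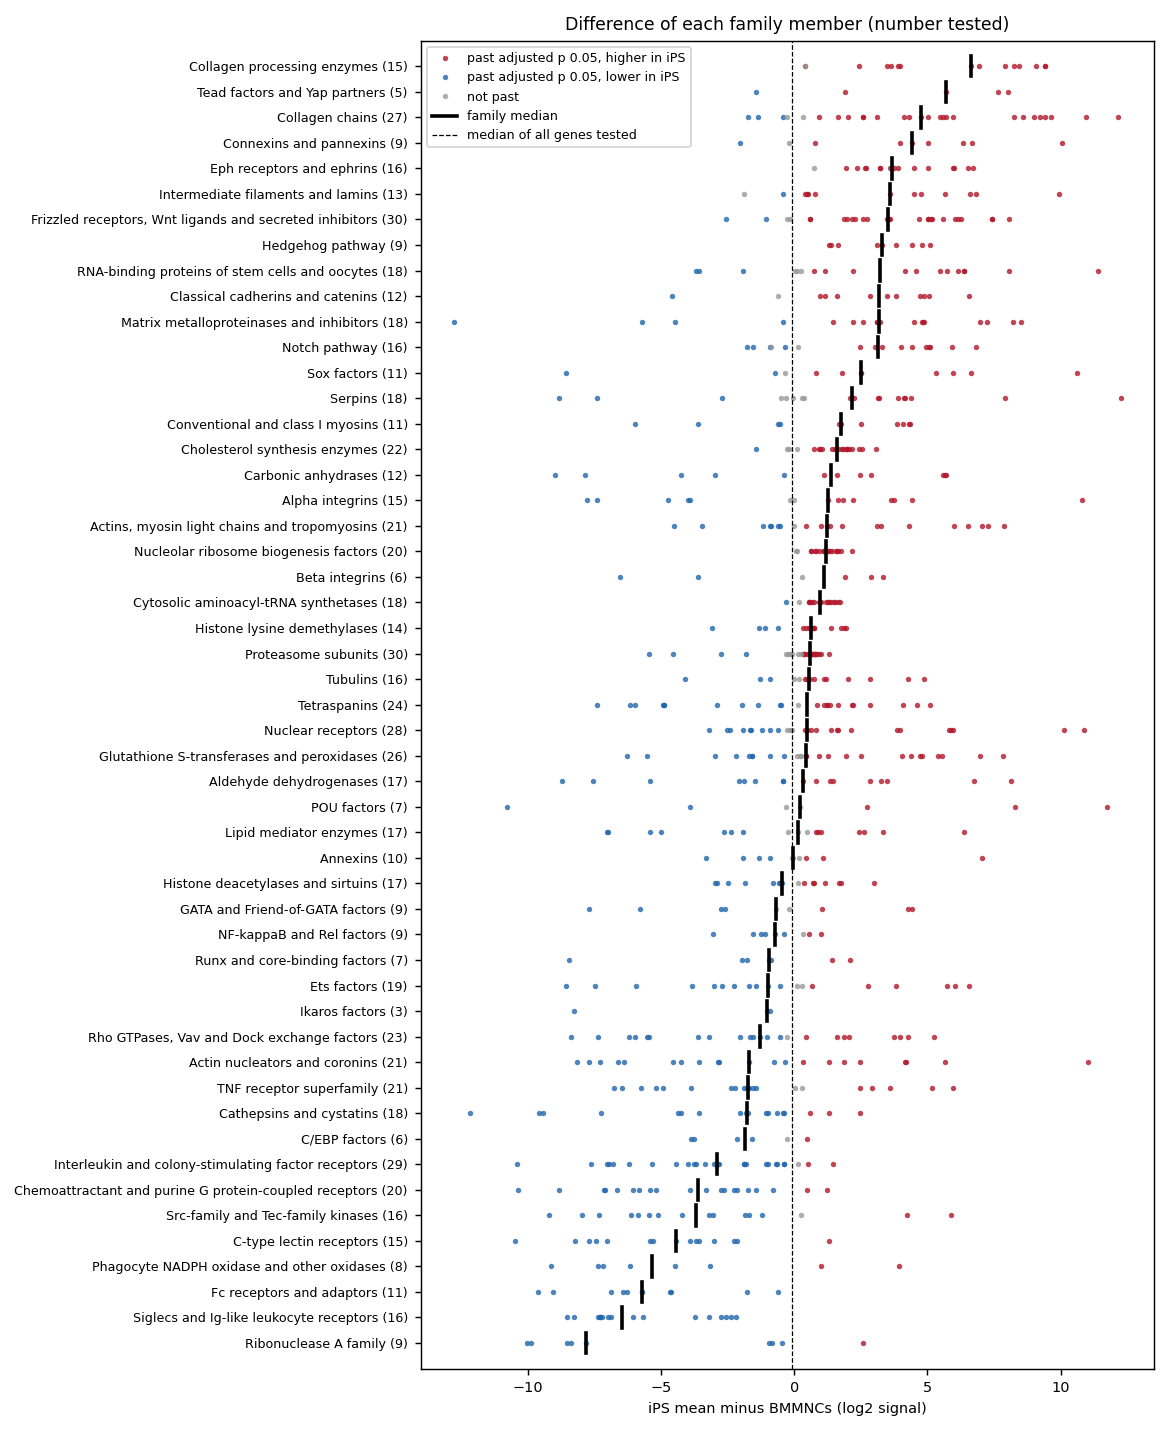
Each point is the iPS mean minus BMMNCs (log2 signal, horizontal axis) of a family member, each row is a family with its number of tested members, the short black line is the family median and the dashed line the median of all genes tested, -0.08. Siglecs and Fc receptors lie wholly on the left, Eph receptors, ephrins and collagen processing enzymes wholly on the right, and most families hold members on both sides.

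The labels were first set against marker lists. All 8 markers of pluripotent stem cells were well above background in both lines and 3 of 8 in BMMNCs. The neutrophil list gave 0 of 8 in either line and 8 of 8 in BMMNCs, with a summed log2 signal of -3.93 in line 7, -3.55 in line 13 and 10.67 in BMMNCs. The erythroid list gave 4, 5 and 8 of 8, the B lineage list 4, 4 and 8 of 8, and the eosinophil, basophil and mast cell list 3, 2 and 8 of 8. T and NK cell markers gave 3, 2 and 7 of 7, monocyte and macrophage markers 5, 5 and 6 of 6, and megakaryocyte markers 5, 5 and 8 of 8. The fibroblast list, which stands for the feeders, was well above background for 8 of 8 markers in both lines and 4 of 8 in BMMNCs. Its summed log2 signal was 8.57 in line 7, 8.50 in line 13 and 3.04 in BMMNCs. Fibroblast RNA and expression of these genes by the lines themselves cannot be told apart here. Markers of marrow stroma and endothelium gave 4, 4 and 7 of 8. Their summed log2 signal was higher in the lines, 3.60 and 3.72 against 0.78, while the median of the same markers was lower, -4.92 and -4.97 against -3.06.

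**Figure D2:**
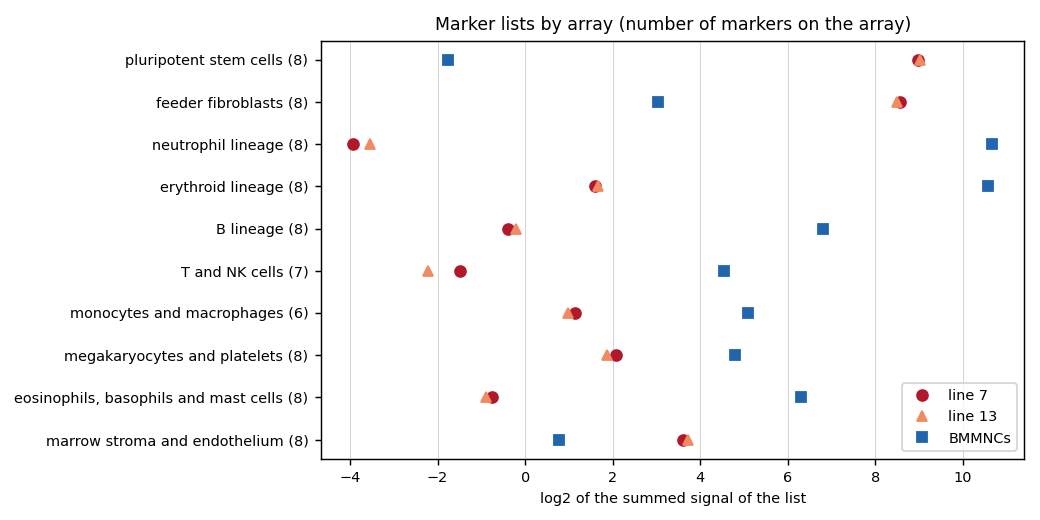
The horizontal axis is the log2 of the summed signal of each marker list, with circles for line 7, triangles for line 13 and squares for BMMNCs. The 7 blood lineage lists were lower in both lines, and the pluripotent and fibroblast lists were higher. The stroma and endothelium list was higher in its sum but lower in its median.

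Surface receptors of leukocytes formed several uniform families. Siglecs and related immunoglobulin-like receptors bind sialic acids or other ligands on neighbouring cells and pass activating or inhibitory signals. All 16 tested members fell and 15 met the size rule. The median difference was -6.47 against -0.08 for all genes, and it was -3.47 over the 8 members above background on all 3 arrays. Pirb, an inhibitory receptor of myeloid and B cells, was at -0.96 and -0.99 in lines 7 and 13 against 6.33 in BMMNCs, and it fell by 7.31 (SE 0.098, limma adjusted p = 7.72e-05). Cd300lf, another inhibitory myeloid receptor, was at -2.69 and -2.58 in lines 7 and 13 against 4.37 in BMMNCs, and it fell by 7.00 (SE 0.11, adjusted p = 7.72e-05). Trem1, which amplifies inflammatory signals of neutrophils, was at 1.65 in BMMNCs and not well above background in either line, and it was at least 118-fold lower in the lines (adjusted p = 7.72e-05). The B cell receptor Cd22 was at 0.75 in BMMNCs and not well above background in either line, and it was at least 63.3-fold lower in the lines (adjusted p = 0.000120). Trem2 differed least in the family: it was at 0.25 and 0.02 in lines 7 and 13 against 2.31 in BMMNCs, and fell by 2.18 (SE 0.14, adjusted p = 0.000698). Both lines lay below BMMNCs for each of these members and near each other.

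Fc receptors bind the constant part of antibodies and work through short signalling adaptors. Here 11 of 11 tested members fell, 9 of them by at least 4-fold in both lines, with a median of -5.72. The shared signalling chain Fcer1g was at -0.47 and -0.89 in lines 7 and 13 against 5.04 in BMMNCs, and it fell by 5.72 (SE 0.22, adjusted p = 0.000213). Its counterpart Tyrobp, the adaptor of many myeloid and NK receptors, was at -1.27 and -1.32 in lines 7 and 13 against 5.60 in BMMNCs, and it fell by 6.89 (SE 0.10, adjusted p = 7.72e-05). Neither adaptor was lost to background in the lines. Fcgr1 and Fcgrt, the latter a carrier of antibody across many cell types, missed the size rule: Fcgrt was at -0.27 and -0.40 in lines 7 and 13 against 0.27 in BMMNCs, and it fell by 0.61 (SE 0.11, adjusted p = 0.0123).

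Promoters of these receptors are shown because the members fell together and because Ets factors, among them Spi1, are known regulators of myeloid receptor genes. The 4 stretches are the 250 bases before the annotated start, 5′ to 3′ on the gene's strand, from the RefSeq promoter table of GRCm38.p6, and capitals mark an Ets core, which is GAGGAA in some genes, CAGGAA in others and CCGGAA in yet others, on either strand. Pirb lies at chr7:3720383-3720632 (minus strand), Cd300lf at chr11:115133993-115134242 (minus), Trem1 at chr17:48232489-48232738 (plus) and Fcer1g at chr1:171234350-171234599 (minus).
Pirb: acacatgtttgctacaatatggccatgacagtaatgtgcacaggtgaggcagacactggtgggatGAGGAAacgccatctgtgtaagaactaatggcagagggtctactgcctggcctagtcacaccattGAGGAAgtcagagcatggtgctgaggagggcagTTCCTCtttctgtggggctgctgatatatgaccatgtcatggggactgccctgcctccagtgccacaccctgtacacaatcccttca
Cd300lf: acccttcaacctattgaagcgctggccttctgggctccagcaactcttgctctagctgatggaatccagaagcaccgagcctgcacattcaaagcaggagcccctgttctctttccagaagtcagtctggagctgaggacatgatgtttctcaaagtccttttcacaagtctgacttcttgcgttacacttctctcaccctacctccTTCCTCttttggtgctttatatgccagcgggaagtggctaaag
Trem1: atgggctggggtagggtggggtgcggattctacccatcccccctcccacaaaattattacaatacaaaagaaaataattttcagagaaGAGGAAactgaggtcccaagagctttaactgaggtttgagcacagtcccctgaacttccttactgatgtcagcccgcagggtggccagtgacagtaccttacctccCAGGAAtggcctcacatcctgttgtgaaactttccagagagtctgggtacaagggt
Fcer1g: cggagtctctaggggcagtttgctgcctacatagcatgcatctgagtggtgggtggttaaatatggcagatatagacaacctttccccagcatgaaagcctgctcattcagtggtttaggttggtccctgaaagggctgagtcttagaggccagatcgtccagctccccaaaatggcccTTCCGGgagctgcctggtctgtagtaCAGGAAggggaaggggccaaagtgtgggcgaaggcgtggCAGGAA
The letters occurred 3 times before Pirb and Fcer1g, 2 times before Trem1 and once before Cd300lf, and neighbouring matches may overlap. Of the tested Siglec-like members with a window in the table, 12 of 13 held the letters (92.3%), and of the Fc receptors and adaptors 8 of 10 (80.0%). The share was 49.9% over all 27025 windows, 53.0% over tested genes, and, on the signals as measured, 55.4% over genes at least 4-fold lower and 46.4% over genes at least 4-fold higher in both lines. The share varied among other families. Collagen chains gave 8 of 22 (36.4%), matrix metalloproteinases and inhibitors 9 of 14 (64.3%), and cytosolic aminoacyl-tRNA synthetases 8 of 12 (66.7%). The phagocyte and other oxidases gave 1 of 5 (20.0%). Of these, the oxidases mostly fell in the lines and the others mostly rose. Other receptor families that mostly fell had lower shares than the Siglec-like and Fc receptor families. C-type lectin receptors gave 6 of 10 (60.0%) and interleukin and colony-stimulating factor receptors 15 of 23 (65.2%). The TNF receptor superfamily gave 11 of 19 (57.9%), and chemoattractant and purine receptors 9 of 17 (52.9%). The letters of GATA sites, AGATAA and its variant TGATAA on either strand, stood in 0 of 13 Siglec-like windows and 1 of 10 windows of Fc receptors and adaptors, against 997 of 10016 tested genes with a window and 17.0% of all windows. In the other receptor families GATA letters stood in 34.8% (interleukin and colony-stimulating factor), 29.4% (chemoattractant and purine), 20.0% (C-type lectin) and 0.0% (TNF) of windows. Ets and GATA letters were 2 of 7 motif groups searched, and a match is a description of the letters, not of a bound site.

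C-type lectin receptors, which recognise sugars and damaged cells, fell in 14 of 15 cases with a median of -4.46. Clec5a, a receptor of neutrophils and monocytes, was at -3.83 and -3.70 in lines 7 and 13 against 4.46 in BMMNCs, and it fell by 8.23 (SE 0.11, adjusted p = 7.72e-05). Clec4n was the exception, at -1.10 and -1.29 in lines 7 and 13 against -2.50 in BMMNCs, and it rose by 1.30 (SE 0.13, adjusted p = 0.00219).

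Cytokine receptors were less uniform. Of 29 interleukin and colony-stimulating factor receptors 26 fell, 15 of them past the size rule, and 2 rose. The median was -2.90, and -1.88 over the 21 members above background on all 3 arrays. Csf3r, the receptor for the granulocyte growth factor, was at 3.21 in BMMNCs and not well above background in either line, and it was at least 348-fold lower in the lines (adjusted p = 8.63e-05). Il2rb was at 2.17 in BMMNCs and not well above background in either line, and was at least 168-fold lower in the lines (adjusted p = 7.72e-05). Those that rose were Il6st and Il1r1. Il6st encodes the gp130 chain through which leukemia inhibitory factor signals; it was at 1.94 and 1.86 in lines 7 and 13 against 0.45 in BMMNCs, and it rose by 1.45 (SE 0.10, adjusted p = 0.000876). Il1r1 was at -0.57 and -0.67 in lines 7 and 13 against -1.12 in BMMNCs, and it rose by 0.50 (SE 0.11, adjusted p = 0.0182).

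In the TNF receptor superfamily 14 of 21 fell and 5 rose, and 4 of those that rose met the size rule. Tnfrsf18, a costimulatory receptor of T cells, was at -4.63 and -4.69 in lines 7 and 13 against 2.10 in BMMNCs, and it fell by 6.76 (SE 0.10, adjusted p = 7.72e-05). Tnfrsf13c, the BAFF receptor of B cells, was at -3.95 and -3.44 in lines 7 and 13 against 2.08 in BMMNCs, and it fell by 5.77 (SE 0.26, adjusted p = 0.000287). On the other side, Tnfrsf12a, the receptor for TWEAK, was at 4.17 and 4.10 in lines 7 and 13 against -1.81 in BMMNCs, and it rose by 5.94 (SE 0.10, adjusted p = 7.72e-05). Tnfrsf11b, the secreted decoy osteoprotegerin, was at 0.33 and 0.11 in lines 7 and 13 and not well above background in BMMNCs, and it was at least 35.7-fold higher in the lines (adjusted p = 0.000116). Ngfr and Tnfrsf10b also rose, by 3.58 and 2.91, although a second Ngfr probe, above background on all 3 arrays, gave a difference of 0.47. Tnfrsf23 was at least 1.27-fold higher, and its difference was -0.01 with normexp background correction.

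Receptors for chemoattractants and purines fell in 18 of 20 cases, 12 of them past the size rule. The median was -3.62, and -1.95 over the 8 members above background on all 3 arrays. The formyl peptide receptors, which guide phagocytes to bacteria, were lost to background in both lines: Fpr2 was at 3.27 in BMMNCs and not well above background in either line, and it was at least 364-fold lower in the lines (adjusted p = 7.72e-05), and Fpr1 was at least 250-fold lower in the lines (adjusted p = 7.72e-05). Ltb4r1, the leukotriene B4 receptor, was at -2.13 and -2.00 in lines 7 and 13 against 4.61 in BMMNCs, and it fell by 6.68 (SE 0.11, adjusted p = 7.72e-05). P2ry2 rose by 0.46, and C3ar1, not well above background in BMMNCs, was at least 2.30-fold higher.

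Among signalling and actin proteins, several members typical of blood cells fell while a homologue of theirs rose. After the values were seen, 17 such homologous pairs were picked from 9 families. By that choice the first genes fell (differences of -2.39 to -8.71) and the second genes rose (0.33 to 11.03), so the counts are a description and no support for a rule. The outer ends of both ranges rest on dim signals. Aldh1a1 (-8.71) was not well above background in line 13, and Fermt2 (11.03) was not in BMMNCs. Other homologues of broad distribution in these families fell, among them Rac1 by 1.28, Wasf2 by 1.72, Wipf2 by 0.76, Rhoa by 0.55 and Coro1b by 0.35.

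**Figure D3:**
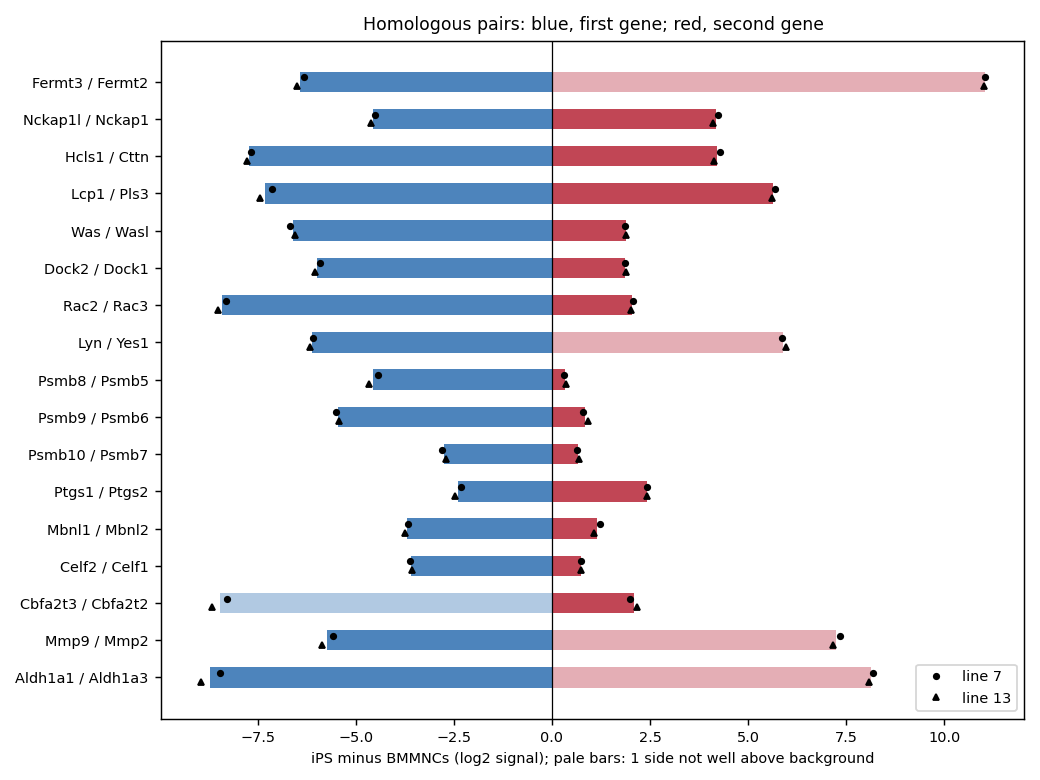
Bars give the iPS mean minus BMMNCs (log2 signal) of both genes of 17 homologous pairs, blue for the first gene named and red for the second, with circles for line 7 and triangles for line 13. Pale bars have a side that was not well above background, where the length is no measured fold. Psmb5 has the shortest red bar and the kindlin Fermt2 the longest.

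Kindlins activate integrins from inside the cell. Fermt3, the kindlin of blood cells, was at -3.45 and -3.62 in lines 7 and 13 against 2.87 in BMMNCs, and it fell by 6.41 (SE 0.13, adjusted p = 8.21e-05). Fermt2, the kindlin of most adherent tissues, was at 4.18 and 4.16 in lines 7 and 13 and not well above background in BMMNCs, and it was at least 552-fold higher in the lines (adjusted p = 7.72e-05). Among the integrins themselves, Itgb2, the shared beta chain of leukocyte integrins, was at -2.00 and -2.40 in lines 7 and 13 against 4.34 in BMMNCs, and it fell by 6.54 (SE 0.21, adjusted p = 0.000157). Its partners followed: Itgam was at least 155-fold lower in the lines (adjusted p = 7.72e-05), Itgax was at least 61.5-fold lower in the lines (adjusted p = 0.000125), and Itgal fell by 3.98 (SE 0.11, adjusted p = 0.000114). Itgb7, found on lymphocytes that home to the gut, was at 0.93 and 1.26 in lines 7 and 13 against 4.72 in BMMNCs, and it fell by 3.63 (SE 0.18, adjusted p = 0.000365).

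Integrins with ligands in the extracellular matrix were among those that rose, but not all of that kind did. Itga11, a collagen receptor of fibroblasts, was at 4.16 and 4.05 in lines 7 and 13 and not well above background in BMMNCs, and it was at least 527-fold higher in the lines (adjusted p = 7.72e-05). Itga3 rose by 4.43, although a second, dimmer probe of it, well above background on all 3 arrays, gave a difference of -0.81. Itga5, of the fibronectin receptor, rose by 3.63, and Itgb5, a partner of the alpha V chain, was at 5.04 and 4.93 in lines 7 and 13 against 2.10 in BMMNCs, and it rose by 2.88 (SE 0.11, adjusted p = 0.000214). Itgb1, the beta chain shared by most of them, was at 3.20 and 2.96 in lines 7 and 13 against 1.17 in BMMNCs, and it rose by 1.92 (SE 0.15, adjusted p = 0.00105). Itgae, a leukocyte integrin that binds E-cadherin, also rose, by 1.25. Of 15 alpha chains tested 8 rose and 5 fell, and of 6 beta chains 3 rose and 2 fell. Over all genes 39.6% rose and 42.1% fell. Itga4 and Itga2b were among the alpha chains that fell, by 4.73 and 3.92. Itga1 and Itga8 did not pass, with differences of -0.17 and -0.02.

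Of 21 actin regulators 13 fell and 8 rose, beside 42.1% and 39.6% of all genes. By the size rule 10 were lower and 5 higher, beside 12.8% and 12.5% of all genes. Coro1a, a coronin of leukocytes, was at -0.63 and -0.49 in lines 7 and 13 against 7.61 in BMMNCs, and it fell by 8.17 (SE 0.12, adjusted p = 7.72e-05). Hcls1, the cortactin homologue of blood cells, was at -1.88 and -1.98 in lines 7 and 13 against 5.80 in BMMNCs, and it fell by 7.73 (SE 0.11, adjusted p = 7.72e-05). Cttn, cortactin, was at 2.77 and 2.62 in lines 7 and 13 against -1.52 in BMMNCs, and it rose by 4.21 (SE 0.12, adjusted p = 0.000125). The plastins, which bundle actin filaments, went opposite ways: Lcp1 was at -1.64 and -1.95 in lines 7 and 13 against 5.50 in BMMNCs, and it fell by 7.30 (SE 0.18, adjusted p = 0.000103). Pls3 was at 3.75 and 3.67 in lines 7 and 13 against -1.93 in BMMNCs, and it rose by 5.64 (SE 0.10, adjusted p = 7.81e-05). Was, the protein missing in Wiskott-Aldrich syndrome, fell by 6.61 and its ubiquitous relative Wasl rose by 1.88. In the WAVE complex, which triggers branched actin growth, Nckap1l fell by 4.56 and Nckap1 rose by 4.17, Cyfip2 fell by 4.27 and Cyfip1 rose by 0.33, the smallest of these changes and no longer past the threshold when arrays were scaled to their medians.

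Small GTPases and their exchange factors fell in 14 of 23 cases and rose in 8, beside 42.1% and 39.6% of all genes. Rac2, the Rac of blood cells, was at -2.68 and -2.87 in lines 7 and 13 against 5.63 in BMMNCs, and it fell by 8.40 (SE 0.13, adjusted p = 7.72e-05). Rac1 fell by 1.28, with -0.34 on a second probe above background on all 3 arrays, and Rac3 rose by 2.04. Vav1, which activates Rac downstream of antigen receptors, was at -3.54 and -2.47 in lines 7 and 13 against 3.20 in BMMNCs, a gap of 1.07 between the lines, and it fell by 6.21 (SE 0.50, adjusted p = 0.00121). Dock2 fell by 5.99 and Dock1 rose by 1.87. Rhoc was at 5.90 and 5.81 in lines 7 and 13 against 1.58 in BMMNCs, and it rose by 4.27 (SE 0.11, adjusted p = 0.000106), whereas Rhoa fell by 0.55 and Rhob by 1.55.

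Tyrosine kinases of the Src and Tec families, which relay signals from immune receptors, fell in 13 of 16 cases, with a median of -3.70, and of -2.46 over the 10 members above background on all 3 arrays. Btk, the kinase needed for B cell development, was at 3.0 in BMMNCs and not well above background in either line, and it was at least 301-fold lower in the lines (adjusted p = 7.72e-05). Lyn was at -1.54 and -1.62 in lines 7 and 13 against 4.55 in BMMNCs, and it fell by 6.12 (SE 0.10, adjusted p = 7.72e-05). Src was at 0.12 and 0.01 in lines 7 and 13 against -4.17 in BMMNCs, and it rose by 4.23 (SE 0.11, adjusted p = 0.000108), while a second probe, above background on all 3 arrays, gave a difference of 0.27. Yes1, a Src-family kinase long linked to the self-renewal of mouse ES cells, was at -0.69 and -0.58 in lines 7 and 13 and not well above background in BMMNCs, and it was at least 19.7-fold higher in the lines (adjusted p = 7.81e-05). Fyn was at -1.17 and -1.21 in lines 7 and 13 against -1.45 in BMMNCs (difference 0.26, adjusted p = 0.0762).

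Transcription factor families were mixed: of 104 members tested over 10 families 45 rose and 47 fell, close to the shares over all genes. Ets factors fell in 11 of 19 cases and rose in 6. Spib, an Ets factor of B and plasmacytoid dendritic cells, was at -5.11 and -5.02 in lines 7 and 13 against 3.51 in BMMNCs (well above background in line 7 and BMMNCs) and fell by 8.57 (SE 0.11, adjusted p = 7.72e-05). Fli1, which acts in megakaryocytes and vessels, was at -3.70 and -3.70 in lines 7 and 13 against 3.78 in BMMNCs, and it fell by 7.48 (SE 0.097, adjusted p = 7.72e-05). Spi1, also called PU.1, was at -1.40 in BMMNCs and not well above background in either line, and it was at least 14.3-fold lower in the lines (adjusted p = 8.58e-05). Etv4, which responds to FGF signalling, was at 1.97 and 2.05 in lines 7 and 13 against -3.73 in BMMNCs, and it rose by 5.74 (SE 0.10, adjusted p = 7.81e-05). Etv5, a close relative, was at 1.12 and 1.15 in lines 7 and 13 and not well above background in BMMNCs, and it was at least 66.2-fold higher in the lines (adjusted p = 7.72e-05), and the epithelial factor Elf3 was at least 19.4-fold higher in the lines (adjusted p = 7.72e-05).

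Among GATA factors and their partners, Lmo2, a bridging protein of blood stem and red cell factors, was at -4.75 and -4.75 in lines 7 and 13 against 2.98 in BMMNCs, and it fell by 7.73 (SE 0.097, adjusted p = 7.72e-05). Gata1, the erythroid factor, fell by 5.80 and Gata2, a factor of blood progenitors, by 2.60. Gata6, a factor of primitive endoderm, was at -0.92 and -1.04 in lines 7 and 13 and not well above background in BMMNCs, and it was at least 15.5-fold higher in the lines (adjusted p = 0.000107), on the brighter of its probes. Gata3 rose by 1.04. Of the Runx group, the corepressor Cbfa2t3 was at 2.77 in BMMNCs and not well above background in either line, and it was at least 257-fold lower in the lines (adjusted p = 9.92e-05), while its relative Cbfa2t2, a corepressor also known from ES cells, rose by 2.08. Ikzf1, the lymphoid factor Ikaros, was at 1.15 in BMMNCs and not well above background in either line, and it was at least 83.8-fold lower in the lines (adjusted p = 0.000109).

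The Sox and POU families contain the core pluripotency factors, but other members moved too. Sox6, which helps silence embryonic globin in red cells, was at 1.16 in BMMNCs and not well above background in either line, and it was at least 84.3-fold lower in the lines (adjusted p = 0.000110). Sox9, Sox21 and Sox7 were not well above background in BMMNCs, and they were at least 22.2-fold, 17.5-fold and 9.70-fold higher in the lines. Pou2af1, the B cell coactivator of octamer-binding factors, was at 5.25 in BMMNCs and not well above background in either line, and it was at least 1427-fold lower in the lines (adjusted p = 0.000329). Pou3f1, also called Oct6, was at 3.17 and 3.21 in lines 7 and 13 and not well above background in BMMNCs, and it was at least 279-fold higher in the lines (adjusted p = 7.72e-05). Pou2f1, which most cells express, was at 1.73 and 1.72 in lines 7 and 13 against 1.53 in BMMNCs (difference 0.20, adjusted p = 0.138).

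Nuclear receptors, ligand-dependent or orphan factors, rose in 16 of 28 cases and fell in 9. Nr0b1, the orphan receptor Dax1 of ES cells, was at 3.95 and 4.10 in lines 7 and 13 and not well above background in BMMNCs, and it was at least 498-fold higher in the lines (adjusted p = 7.72e-05). Nr5a2, which can replace Oct4 in reprogramming, was at 1.05 and 1.29 in lines 7 and 13 and not well above background in BMMNCs, and it was at least 61.7-fold higher in the lines (adjusted p = 0.000105). Nr6a1, germ cell nuclear factor, was at 0.61 and 0.53 in lines 7 and 13 and not well above background in BMMNCs, and it was at least 45.5-fold higher in the lines (adjusted p = 7.72e-05). On the lower side, Thra fell by 2.54, with -0.83 on a second probe above background on all 3 arrays, and Pparg fell by 2.41. The family median of 0.47 turned to -0.17 over the 19 members above background on all 3 arrays. Coactivators of the Hippo pathway were far apart from marrow: Yap1 was at 1.44 and 1.12 in lines 7 and 13 and not well above background in BMMNCs, and it was at least 74.4-fold higher in the lines (adjusted p = 9.33e-05), Wwtr1 was at least 75-fold higher in the lines (adjusted p = 7.75e-05), and their DNA-binding partner Tead2 rose by 5.69.

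The phagocyte oxidase makes superoxide from a membrane core and cytosolic subunits. Of 8 oxidase genes tested 6 fell, each of them past the size rule, and 2 rose. The core subunit Cybb was at -4.71 and -4.73 in lines 7 and 13 against 4.44 in BMMNCs. Ncf1 was at -4.14 and -4.68 in lines 7 and 13 against 2.76 in BMMNCs, and it fell by 7.18 (SE 0.27, adjusted p = 0.000203). Ncf4 was at -1.56 and -1.72 in lines 7 and 13 against 5.72 in BMMNCs, and it fell by 7.36 (SE 0.12, adjusted p = 7.72e-05). Cyba, the partner of Cybb in the membrane and of other oxidases, was at 1.14 and 1.14 in lines 7 and 13 against 4.31 in BMMNCs, and it fell by 3.17 (SE 0.097, adjusted p = 0.000145), the smallest fall of the complex. Nox4, an oxidase of non-phagocytic cells, was at -3.05 and -3.35 in lines 7 and 13 and not well above background in BMMNCs, and it was at least 3.33-fold higher in the lines (adjusted p = 0.000259).

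Enzymes of lipid mediators went both ways. Of the leukotriene enzymes, Alox5 was at -2.79 and -2.50 in lines 7 and 13 against 4.39 in BMMNCs, and it fell by 7.03 (SE 0.17, adjusted p = 0.000101). Alox5ap, its activating protein, fell by 7.01 and Lta4h by 2.65. Thromboxane synthase, Tbxas1, fell by 5.42. The prostacyclin synthase Ptgis was at -0.62 and -0.67 in lines 7 and 13 and not well above background in BMMNCs, and it was at least 19.5-fold higher in the lines (adjusted p = 7.72e-05). Ptges, which makes prostaglandin E2, rose by 3.31. Cyclooxygenases moved apart, Ptgs1 falling by 2.39 and Ptgs2 rising by 2.41. The median of the 17 enzymes, 0.12, changed sign under several settings and has no direction.

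Lysosomal and granule proteases were led by Ctsg, cathepsin G of neutrophil granules, which was at 6.78 in BMMNCs and not well above background in either line, and it was at least 3994-fold lower in the lines (adjusted p = 7.72e-05). Of 18 cathepsins and cystatins 15 fell. Ctss, the protease of antigen processing, was at 1.73 and 1.61 in lines 7 and 13 against 6.03 in BMMNCs, and it fell by 4.36 (SE 0.11, adjusted p = 0.000108). Ctsl was at 5.94 and 5.88 in lines 7 and 13 against 3.44 in BMMNCs, and it rose by 2.47 (SE 0.10, adjusted p = 0.000240), and Ctsk, the osteoclast protease, rose by 1.31.

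The ribonuclease A family had the lowest median of all families, -7.81 over 9 members, but only 2 of these were above background on all 3 arrays, with a median of 0.81. Rnase6 was at 3.08 in BMMNCs and not well above background in either line, and it was at least 319-fold lower in the lines (adjusted p = 9.24e-05). Ear1, an eosinophil ribonuclease, had the largest gap between the lines of all listed members: it was at -7.67 and -3.88 in lines 7 and 13 against 2.03 in BMMNCs (well above background in line 13 and BMMNCs). The Ear genes are near-identical copies, so a probe may read several of them, which was not tested. Rnase4 went the other way, at 1.29 and 1.17 in lines 7 and 13 against -1.33 in BMMNCs, and it rose by 2.56 (SE 0.11, adjusted p = 0.000270).

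Protease inhibitors of the serpin family rose in 10 of 18 cases, 9 of them past the size rule, and fell in 3. Serpinf1, pigment epithelium-derived factor, rose by 4.38. Serpinb1a, the inhibitor of neutrophil elastase, was at -1.94 and -1.78 in lines 7 and 13 against 5.54 in BMMNCs, and it fell by 7.40 (SE 0.12, adjusted p = 7.72e-05). Serpinb10 was at 2.15 in BMMNCs and not well above background in either line, and it was at least 167-fold lower in the lines (adjusted p = 0.000202). Of 10 annexins 3 rose and 4 fell, beside 39.6% and 42.1% of all genes. Anxa8 was at 1.90 and 1.94 in lines 7 and 13 and not well above background in BMMNCs, and it was at least 116-fold higher in the lines (adjusted p = 7.72e-05). Anxa9 was at -3.86 and -4.19 in lines 7 and 13 against -0.69 in BMMNCs, and it fell by 3.33 (SE 0.18, adjusted p = 0.000457).

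Several metabolic families also held members that moved both ways. Car1 and Car2, the carbonic anhydrases of red cells, were the lowest of 12: Car1 was at -4.46 and -4.32 in lines 7 and 13 against 4.60 in BMMNCs, and it fell by 8.99 (SE 0.12, adjusted p = 7.72e-05). Car2 was at -0.51 and -0.73 in lines 7 and 13 against 7.25 in BMMNCs, and it fell by 7.87 (SE 0.14, adjusted p = 7.72e-05). Car4, Car6 and Car12 were not well above background in BMMNCs and were at least 13.4-fold, 15.0-fold and 14.8-fold higher in the lines. The family median of 1.37 became -2.33 over the 6 members above background on all 3 arrays.

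Aldehyde dehydrogenases rose in 9 of 17 cases and fell in 8, beside 39.6% and 42.1% of all genes. Aldh1a1, which makes retinoic acid and marks blood progenitors, was at -4.47 and -4.97 in lines 7 and 13 against 3.98 in BMMNCs (well above background in line 7 and BMMNCs) and fell by 8.71 (SE 0.25, adjusted p = 0.000131). Aldh1a3, another retinoic acid enzyme, was at 0.90 and 0.80 in lines 7 and 13 and not well above background in BMMNCs, and it was at least 55.1-fold higher in the lines (adjusted p = 7.72e-05). Aldh1l2, a mitochondrial enzyme of folate metabolism, was at 0.30 and 0.07 in lines 7 and 13 and not well above background in BMMNCs, and it was at least 34.8-fold higher in the lines (adjusted p = 9.13e-05). Aldh2 fell by 1.88.

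Among glutathione enzymes 14 of 26 rose and 9 fell, beside 39.6% and 42.1% of all genes. The microsomal transferases Mgst1, Mgst2 and Mgst3 fell by 5.54, 6.27 and 2.99. Gpx1, the glutathione peroxidase abundant in red cells, was at 5.89 and 5.90 in lines 7 and 13 against 8.10 in BMMNCs, and it fell by 2.20 (SE 0.097, adjusted p = 0.000285). Gsta4, which detoxifies lipid peroxidation products, was at 2.42 and 2.54 in lines 7 and 13 and not well above background in BMMNCs, and it was at least 170-fold higher in the lines (adjusted p = 7.72e-05). Gpx8, a peroxidase of the endoplasmic reticulum, rose by 6.98 and Gstm2 by 5.41. Gst genes of a class are similar in sequence, and whether probes separate them was not tested.

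Most genes of cholesterol synthesis were higher in the lines: of 22 tested 18 rose and 1 fell, with a median of 1.61. By the size rule 5 were higher, beside 12.5% of all genes. Lss, lanosterol synthase, had the largest rise: it was at 1.21 and 1.16 in lines 7 and 13 against -1.88 in BMMNCs, and it rose by 3.07 (SE 0.10, adjusted p = 0.000161). Sqle rose by 2.17. Ebp, a late isomerase, was at 3.44 and 3.55 in lines 7 and 13 against 4.96 in BMMNCs, and it fell by 1.46 (SE 0.11, adjusted p = 0.000976). The regulator Srebf2 was at 1.60 and 1.54 in lines 7 and 13 against 1.46 in BMMNCs (difference 0.11, adjusted p = 0.371).

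Some families of protein synthesis rose narrowly and together, but genes of ribosomal proteins did not. Nucleolar factors for ribosome assembly rose in 18 of 20 cases and fell in 0, with a median of 1.17, and just 1 member, Rrp9, met the size rule. Nolc1, a nucleolar chaperone, was at 3.42 and 3.46 in lines 7 and 13 against 1.68 in BMMNCs, and it rose by 1.76 (SE 0.098, adjusted p = 0.000482). Ncl, nucleolin, was at 7.36 and 7.42 in lines 7 and 13 against 6.32 in BMMNCs, and it rose by 1.07 (SE 0.10, adjusted p = 0.00180). Cytosolic aminoacyl-tRNA synthetases, which load amino acids on tRNAs, rose in 16 of 18 cases with a median of 0.98, and none met the size rule. Iars was at 4.17 and 4.19 in lines 7 and 13 against 2.56 in BMMNCs, and it rose by 1.62 (SE 0.098, adjusted p = 0.000582), while Hars was at 2.72 and 2.73 in lines 7 and 13 against 3.04 in BMMNCs, and it fell by 0.32 (SE 0.097, adjusted p = 0.0447). Scaling to the array median lowers all differences by 0.19, which is small beside these medians. Of 42 tested genes with symbols in Rps, mostly ribosomal proteins, 10 rose and 20 fell, with a median of -0.32. Of 48 with symbols in Rpl, 11 rose and 18 fell, with a median of -0.11.

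Most proteasome genes were slightly higher in the lines, while genes of the immunoproteasome were lower. Of 30 subunits 20 rose, none past the size rule, and 4 fell. The 4 that fell were the catalytic subunits of the immunoproteasome, which cuts peptides for antigen presentation, and the activator subunit Psme1. Psmb9 was at -0.91 and -0.82 in lines 7 and 13 against 4.60 in BMMNCs, and it fell by 5.46 (SE 0.11, adjusted p = 8.11e-05). Psmb8 was at 0.17 and -0.04 in lines 7 and 13 against 4.61 in BMMNCs, and it fell by 4.55 (SE 0.14, adjusted p = 0.000142). Psmb10 was at 2.23 and 2.31 in lines 7 and 13 against 5.02 in BMMNCs, and it fell by 2.76 (SE 0.10, adjusted p = 0.000207). The constitutive subunits that occupy the same places, Psmb6, Psmb5 and Psmb7, rose by 0.85, 0.33 and 0.66, beside a median of 0.58 over all 30 subunits. Psmb5 missed the threshold when arrays were scaled to their medians. Whether subunits were exchanged in the complex was not tested. Psme1 fell by 1.80.

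RNA-binding proteins had larger differences, with 12 of 18 higher and 10 of these past the size rule, and a median of 3.20, or 0.74 over the 13 members above background on all 3 arrays. Igf2bp1, which stabilises mRNAs in embryos, was at 4.68 and 4.65 in lines 7 and 13 and not well above background in BMMNCs, and it was at least 775-fold higher in the lines (adjusted p = 7.72e-05). Lin28b, a blocker of let-7 maturation, was at -0.73 and -0.59 in lines 7 and 13 and not well above background in BMMNCs, and it was at least 19.4-fold higher in the lines (adjusted p = 7.81e-05). Lin28a was at 1.91 and 1.82 in lines 7 and 13 against -0.35 in BMMNCs, and it rose by 2.22 (SE 0.11, adjusted p = 0.000341). The epithelial splicing regulators Esrp1 and Esrp2 were at least 20.6-fold and 10.4-fold higher. Mbnl1 and Celf2, splicing regulators of differentiated cells, fell by 3.69 and 3.59, whereas Mbnl2 rose by 1.15 and Celf1 by 0.74. A second Celf2 probe gave -2.09.

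Several families of cell contact were higher in the lines, but the claudins of tight junctions went both ways. Of 13 claudins tested 5 rose and 7 fell, with differences from -10.03 to 7.72. By the size rule 5 were higher and 4 lower, beside 12.5% and 12.8% of all genes. Their median was -1.30, and -0.40 over the 7 members above background on all 3 arrays. Eph receptors and ephrins, which sort cells by contact, rose in 15 of 16 cases, 11 of them past the size rule, with a median of 3.67. Epha2 was at 4.14 and 4.36 in lines 7 and 13 against 1.04 in BMMNCs, and it rose by 3.21 (SE 0.14, adjusted p = 0.000279). Ephb2 was at 0.83 and 0.86 in lines 7 and 13 against -3.64 in BMMNCs, and it rose by 4.49 (SE 0.098, adjusted p = 9.26e-05). Efnb2, a transmembrane ephrin, was at 1.52 and 1.51 in lines 7 and 13 and not well above background in BMMNCs, and it was at least 87.5-fold higher in the lines (adjusted p = 7.72e-05). Ephb6, the member that did not pass, was at -3.74 and -3.14 in lines 7 and 13 against -4.18 in BMMNCs.

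Cadherins and catenins rose in 10 of 12 cases. Cdh1, E-cadherin, was at 3.63 and 3.70 in lines 7 and 13 against -0.14 in BMMNCs, and it rose by 3.81 (SE 0.10, adjusted p = 0.000118). Cdh3, P-cadherin, was at -0.40 and -0.48 in lines 7 and 13 and not well above background in BMMNCs, and it was at least 22.5-fold higher in the lines (adjusted p = 7.72e-05), and Cdh5, the cadherin of vessels, was at least 7.23-fold lower in the lines (adjusted p = 0.000359). Gap junction proteins rose in 7 of 9 cases. Their median was 4.43, and 0.79 over the 5 members above background on all 3 arrays. Gjc1, connexin 45, was at 3.09 and 3.32 in lines 7 and 13 and not well above background in BMMNCs, and it was at least 282-fold higher in the lines (adjusted p = 7.72e-05), and Gja1, connexin 43, rose by 5.03 (SE 0.097, adjusted p = 8.11e-05). Panx1, which forms ATP-releasing channels, fell by 2.03.

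Tetraspanins, which organise membrane domains, were evenly divided, with 12 of 24 higher and 11 lower, beside 39.6% and 42.1% of all genes. Tspan33, a tetraspanin of erythroid and B cells, was at -0.04 and -0.07 in lines 7 and 13 against 6.14 in BMMNCs, and it fell by 6.19 (SE 0.099, adjusted p = 7.72e-05). Cd53 and Cd37, tetraspanins of leukocytes, fell by 4.92 and 4.91. Tspan9 was at 3.98 and 3.82 in lines 7 and 13 against -1.18 in BMMNCs, and it rose by 5.08 (SE 0.12, adjusted p = 0.000103). The widely expressed Cd9 was at 4.60 and 4.70 in lines 7 and 13 against 5.18 in BMMNCs, and it fell by 0.53 (SE 0.11, adjusted p = 0.0150).

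Extracellular matrix families had a median of 4.40 over 60 members tested. Of 27 collagen chains 22 rose and 3 fell, with a median of 4.75, and 19 met the size rule upward. Col3a1, a fibrillar collagen, was at 5.42 and 5.32 in lines 7 and 13 and not well above background in BMMNCs, and it was at least 1268-fold higher in the lines (adjusted p = 7.72e-05). Col5a2, which nucleates collagen fibrils, was at 4.23 and 4.01 in lines 7 and 13 and not well above background in BMMNCs, and it was at least 532-fold higher in the lines (adjusted p = 7.72e-05). Col4a1 and Col4a2, the chains of basement membranes, were higher as well: Col4a1 was at 1.90 and 1.70 in lines 7 and 13 against -3.91 in BMMNCs, and it rose by 5.71 (SE 0.13, adjusted p = 9.92e-05), and Col4a2 was at least 207-fold higher in the lines (adjusted p = 8.11e-05). Col11a2, Col4a6 and Col10a1 fell, by 1.75, 1.37 and 0.44, and Col10a1 was not well above background in line 13.

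The enzymes that fold and crosslink collagen went with it, as 14 of 15 rose and 0 fell. Serpinh1, the collagen chaperone Hsp47, was at 6.21 and 6.14 in lines 7 and 13 against -1.76 in BMMNCs, and it rose by 7.93 (SE 0.10, adjusted p = 7.72e-05). Lox, the crosslinking oxidase, was at 2.42 and 2.28 in lines 7 and 13 and not well above background in BMMNCs, and it was at least 156-fold higher in the lines (adjusted p = 7.72e-05). Loxl1 and Loxl2 were at least 188-fold and 125-fold higher. P4ha2, a prolyl hydroxylase subunit, was at 3.85 and 3.79 in lines 7 and 13 against -4.42 in BMMNCs, and it rose by 8.25 (SE 0.10, adjusted p = 7.72e-05). P4hb, its shared partner and a general folding enzyme, rose by 0.39. The fibroblast markers given above moved with these families, 3 of the 8 are themselves collagens (Col1a1, Col1a2 and Col3a1), and their part in the result was not tested.

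**Figure D4:**
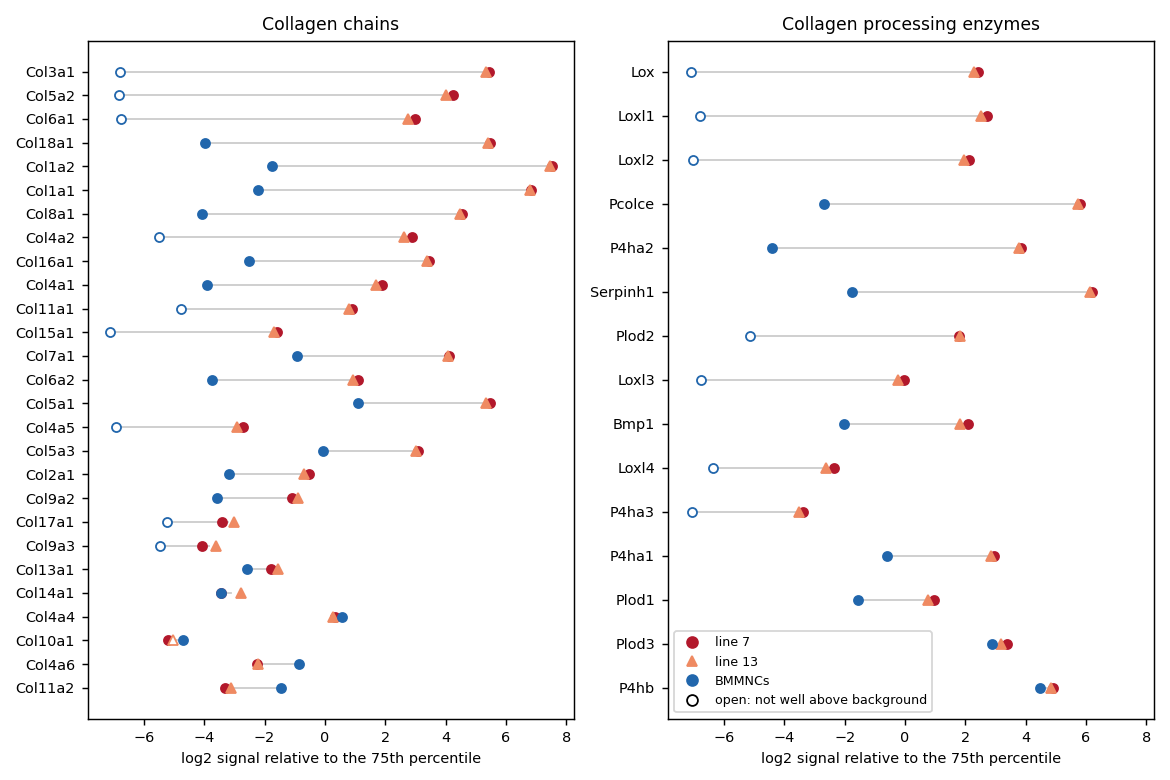
Each row is a gene, and the horizontal axis is its log2 signal relative to the 75th percentile in line 7 (dark circle), line 13 (triangle) and BMMNCs (blue circle); open symbols were not well above background, and rows are not comparable with each other because probes differ. The lines nearly coincide and lie right of BMMNCs in most rows of both panels.

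Matrix metalloproteinases and their inhibitors rose in 14 of 18 cases and fell in 4. Mmp8, neutrophil collagenase, was at 5.65 in BMMNCs and not well above background in either line, and it was at least 1888-fold lower in the lines (adjusted p = 0.000133). Mmp9, gelatinase B of neutrophils, was at -1.18 and -1.44 in lines 7 and 13 against 4.41 in BMMNCs, and it fell by 5.72 (SE 0.15, adjusted p = 0.000116). Mmp2, gelatinase A, was at 1.73 and 1.57 in lines 7 and 13 and not well above background in BMMNCs, and it was at least 96.1-fold higher in the lines (adjusted p = 7.72e-05). Timp1 and Timp3, which inhibit these enzymes, rose by 8.52 and 6.97. Mmp3, stromelysin, was at least 63.1-fold higher, and Mmp14, a membrane-bound activator of Mmp2, rose by 3.23.

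The cytoskeletal families held several genes of contractile cells with large rises. Cnn1, calponin of smooth muscle, was at 4.35 and 4.20 in lines 7 and 13 against -3.62 in BMMNCs, and it rose by 7.89 (SE 0.12, adjusted p = 7.72e-05). Tpm2, a muscle tropomyosin, was at 4.38 and 4.21 in lines 7 and 13 against -2.21 in BMMNCs, and it rose by 6.51 (SE 0.12, adjusted p = 8.04e-05), and Tagln, transgelin, rose by 5.99. Tubb6 and Tubb2b rose by 4.87 and 4.27 and Tuba8 fell by 4.11. Myo1g and Myo1f, class I myosins of blood cells, fell by 5.99 and 3.61. Among intermediate filaments, Nefl, a neurofilament chain, was at 2.74 and 2.74 in lines 7 and 13 and not well above background in BMMNCs, and it was at least 205-fold higher in the lines (adjusted p = 7.72e-05), Nes rose by 6.59 and Vim by 0.51. Tubulin and actin genes share long stretches of sequence, and cross-reading by probes was not tested. The fibroblast list was also high in both lines (8.57 and 8.50 against 3.04), and its part in these rises was not tested.

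Developmental signalling families were mostly higher in the lines. Of 30 Wnt ligands, Frizzled receptors and secreted inhibitors 26 rose and 19 met the size rule upward. The median was 3.53, and 1.98 over the 11 members above background on all 3 arrays. Among ligands, Wnt3a was at -1.58 and -1.51 in lines 7 and 13 and not well above background in BMMNCs, and it was at least 10.5-fold higher in the lines (adjusted p = 7.81e-05). Wnt10a was at -3.87 and -3.85 in lines 7 and 13 against -1.28 in BMMNCs, and it fell by 2.58 (SE 0.097, adjusted p = 0.000211). Among receptors, Fzd2 was at 1.08 and 0.87 in lines 7 and 13 and not well above background in BMMNCs, and it was at least 60.2-fold higher in the lines (adjusted p = 7.72e-05), and Fzd7 rose by 2.58. The secreted inhibitors Sfrp1 and Dkk3 were at least 37.9-fold and 48.6-fold higher, and Sfrp5 was at least 2.11-fold lower in the lines (adjusted p = 0.0125).

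In the Notch pathway 10 of 16 rose, 9 of them past the size rule, and 4 fell. The ligand Jag1 was at 2.55 and 2.41 in lines 7 and 13 against -2.46 in BMMNCs, and it rose by 4.94 (SE 0.11, adjusted p = 9.80e-05). Among receptors, Notch3 was at 1.14 and 1.27 in lines 7 and 13 against -4.72 in BMMNCs, and it rose by 5.93 (SE 0.11, adjusted p = 8.04e-05), and Notch1 fell by 0.90. The target gene Hey1 was at 1.99 and 1.80 in lines 7 and 13 and not well above background in BMMNCs, and it was at least 114-fold higher in the lines (adjusted p = 8.11e-05), and Hes1 rose by 4.01, while Hes5 and Hes6 fell by 1.77 and 1.55. All 9 Hedgehog pathway genes tested rose. The target gene Gli1 was at -2.35 and -2.31 in lines 7 and 13 and not well above background in BMMNCs, and it was at least 6.08-fold higher in the lines (adjusted p = 0.000111), and the receptor Smo, already above background in marrow, rose by 1.38. Fibroblast markers were high in the same 2 arrays here too, and their part was not tested.

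Chromatin enzymes changed by small amounts. Of 31 demethylases, deacetylases and sirtuins 17 rose and 13 fell, while 1 was higher and 3 were lower by the size rule. Hdac6, the deacetylase of tubulin, was at 2.77 and 2.73 in lines 7 and 13 against -0.23 in BMMNCs, and it rose by 2.98 (SE 0.098, adjusted p = 0.000164). Jarid2, a partner of Polycomb in ES cells, rose by 1.87 and Kdm5b by 1.94. Sirt7 was at 2.02 and 2.14 in lines 7 and 13 against 4.96 in BMMNCs, and it fell by 2.89 (SE 0.11, adjusted p = 0.000221), and Hdac7 fell by 1.84.

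Olfactory receptor genes, which neither cell type is known to use, were mostly dim. Of 885 on the array 125 were tested, of which 7 rose, 80 fell and 38 did not pass. Over all genes 39.6% rose and 42.1% fell, so the counts of these receptors were skewed downward. A dim gene could enter through the BMMNC array alone, but from the other side it needed both iPS arrays. The 75th percentile was also a lower signal in BMMNCs, 603 against 1123 and 1127, so an equal dim signal lies lower in the lines. The part of either in the skew was not tested. Their median was -0.84, and -0.48 over the 57 above background on all 3 arrays. Of the 125, 39 were above background on the BMMNC array only and 7 on the iPS arrays only. By the size rule 9 were lower and 1 was higher, beside 12.8% and 12.5% of all genes. With these limits, the values stand beside the families above as a reference for dim probes.

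A census by name needed no list of families. Symbols were grouped by the letters before the first digit. The stems Gm, Rik, Tmem, Fam and Ccdc were left out, and 222 other stems had at least 8 tested members. The lowest medians belonged to the stems Ms, mostly Ms4a membrane proteins of blood cells, at -5.79, and Klra, the Ly49 receptors of NK cells, at -5.51, where 10 of 10 fell. With dim signals at their bounds these medians were -5.09 and -3.62, and none of the Klra genes was above background on all 3 arrays. The highest belonged to Lce, late cornified envelope genes, at 4.72, and Col, at 4.45, followed by Adamts at 3.67 and Hoxb at 3.60. That order rests on dim signals: 5 of 8 Lce members and 7 of 9 Hoxb members were not above background in marrow. With dim signals at their bounds the highest medians were Col at 3.29, Wnt at 3.08, Mmp at 3.0 and Fzd at 2.77, while Lce had 2.51, Adamts 1.71 and Hoxb 1.60. Over members above background on all 3 arrays, the Lce median turned to -0.51 (3 members). There Adamts had 1.68 (3 members), Hoxb 1.30 (2 members) and Col 4.31 (17 members).

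Beyond the families, the largest bounds were upward for Rhox5, a homeobox gene of embryo and testis, which was at least 3550-fold higher in the lines, and for Ccn2, connective tissue growth factor, at least 3206-fold. Fbln2, a matrix protein, followed with at least 2525-fold, then Htra1, a secreted protease, with at least 1801-fold and Tex19.1, a gene of germ and ES cells, with at least 1428-fold. Downward, the globin chain Hba-a1 was at least 29385-fold lower and the calcium-binding neutrophil protein S100a9 at least 23543-fold lower. The granule proteins Ltf, Mpo and Camp were at least 13803-fold, 11182-fold and 11095-fold lower. Above background on all 3 arrays, Igfbp2, which binds insulin-like growth factors, rose by 9.35 (SE 0.13, adjusted p = 7.72e-05), and Hdc, the enzyme that makes histamine, fell by 9.76 (SE 0.16, adjusted p = 7.72e-05).

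The lines resembled each other closely beside these differences. The median gap between line 7 and line 13 was 0.10 over all genes, and 299 genes (1.49%) were more than 2-fold apart, of which 149 nonetheless passed the test against BMMNCs. In 583 genes the lines lay on opposite sides of BMMNCs.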

How the data were processed

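Cy3-labelled RNA of iPS lines 7 and 13 and of BMMNCs was measured on Agilent mouse arrays in 1 colour, as the labels' protocols state. Feature Extraction 9.5 is given in the submitters' processing notes and 9.5.1.1 per the file headers, which also show 1 slide and 1 scan time for every array. The authors deposited intensities, namely a background-subtracted processed signal for each spot, per the file headers. Their other deposited table holds the same intensities divided by a factor per array, and it served as an alternative.

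After removal of control spots and of 14 probes with outlier spots, the log2 spots of each probe were averaged, and the 75th percentile of the array (signals of 1123, 1127 and 603 for line 7, line 13 and BMMNCs) was subtracted. Probes carry accessions, which were matched to RefSeq symbols of assembly GRCm38.p6 for 22948 of 41174 probes, and the array was designed on build mm7. A gene took its brightest probe. limma 3.58.1 in R 4.3.3 was fitted to the 3 arrays with 1 residual degree of freedom, from the 2 lines, and a prior of 2.52 degrees of freedom and 0.094 as SD. Benjamini-Hochberg adjustment ran over 20001 genes. The fit assumes that the spread of BMMNCs equals that of the lines. Probes with 10 spots varied with an SD of 0.058 to 0.061 between spots. The code was tested on simulated data. The number of arrays limits the precision.

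Families, marker lists and the comparison were chosen with earlier results of these data known. The rule for named genes took the first 2 members, the 3 highest and 3 lowest differences and members against the family median, not all of which are printed. The homologous pairs and other named genes were chosen after their values were seen. The alternative background correction, normexp, used median spot signals, since mean signals are not in the columns of the files used here.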

Additional observations from a re-analysis of the deposited data

How the results depend on the processing

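Counts of genes that rose or fell stayed within 1.5 times under all alternatives run. The counts at 4-fold on the signals as measured fell with normexp background correction, from 3189 to 1594 higher and from 3209 to 2051 lower, and with only genes above background on all 3 arrays, to 1202 and 1539. With dim signals raised to the lowest signal above background, an alternative chosen after seeing the data, they were 2492 and 2565. Leaving out a line moved them to 3254 to 3305 and 3373 to 3416. The median of all genes moved from -0.08 to -0.27 with median scaling and to 0.05 in the authors' deposited table. Family medians reversed for lipid mediator enzymes (-0.20 with normexp, -0.07 with median scaling, -0.06 with quantile normalization, -0.06 above background on all 3 arrays and -0.20 with the ES array added). Above background on all 3 arrays they also reversed for POU factors (-0.07), nuclear receptors (-0.17), ribonucleases (0.81) and carbonic anhydrases (-2.33), where fewer members were left. Hars reversed with the ES array added (0.01) and Tnfrsf23 with normexp (-0.01), and the cause was not tested. Of 233 genes named, 6 lost their call with median scaling (Cyfip1, Il1r1, P2ry2, P4hb, Psmb5 and Vim), 15 without a filter on dim probes and 12 with the ES array added. No paired analysis was possible because the lines and the BMMNC array share no replicate number. With a line left out no residual degree of freedom remained, so the test was not run there.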
